A study of Mus musculus with 24 samples.

Results

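Arc, Homer1 and Plk2 are 3 neuronal genes whose products act on the strength and structure of excitatory synapses and whose transcription is known to follow neuronal activity. Their members here were all probe sets that the platform annotation assigned to these symbols alone, which gave 1 probe set for Arc, 6 for Homer1 and 2 for Plk2, or 9 of 45037 probe sets and 3 of 18193 annotated genes. The arrays were hybridised with RNA from mouse neurons of embryonic day 14 on a C57Bl/6 background, taken either from the medial ganglionic eminence (MGE), the embryonic source of cortical inhibitory neurons, or from the cortex (CTX). Wild-type (WT) and Npas4 knockout (KO) embryos were littermates. Npas4 is an activity-induced transcription factor, and the labels say neither which part of the gene was deleted nor how. All cultures, the 0 h controls included, were kept for 10 days and silenced overnight from day 9 with tetrodotoxin, a blocker of sodium channels, and AP-5, a blocker of NMDA receptors. They were then depolarised with 55 mM KCl for 0, 1 or 6 h. The 12 groups of cell type, genotype and time held 2 arrays each, 24 in all, and the comparisons ask how the genes answered depolarisation in each cell type and whether Npas4 was needed for it. The labels number the repeats but do not say that they were separate cultures or litters, so p-values measure the spread between these arrays, which may be technical.

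Arc is a cytoskeleton-associated protein of dendrites that binds endophilin and dynamin and promotes the removal of AMPA receptors from the synapse. Homer1 encodes postsynaptic scaffold proteins that tie metabotropic glutamate receptors to Shank and to calcium stores. Its long forms multimerise through a coiled coil, and a short form made after activity lacks that part and competes with them. Plk2 is a polo-like kinase made during sustained activity that marks the spine protein Sipa1l1 (SPAR) for degradation and weakens synapses. RefSeq lists 5 transcripts for Homer1, 2 for Arc and 1 for Plk2. The annotation does not say which transcripts a probe set detects, so the 6 Homer1 probe sets are described by their identifiers and not as isoforms.

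The Homer1 and Plk2 promoters are shown because letters of the cyclic AMP response element, the sequence bound by the activity-regulated factor CREB, lie close to the start of transcription in both: the full element in Plk2 and half-sites in Homer1. The sequences are RefSeq promoters of build GRCm38.p6, from 250 bases before to 50 bases after the annotated start, both on the plus strand, at chr13:93303507-93303806 for Homer1 and chr13:110394794-110395093 for Plk2. Capitals mark every match on either strand to TGACGTCA (the full element), to its half-site TGACG (written CGTCA where it lies on the minus strand) and to a run like the TATA box, spelled TATTTAA.
Homer1: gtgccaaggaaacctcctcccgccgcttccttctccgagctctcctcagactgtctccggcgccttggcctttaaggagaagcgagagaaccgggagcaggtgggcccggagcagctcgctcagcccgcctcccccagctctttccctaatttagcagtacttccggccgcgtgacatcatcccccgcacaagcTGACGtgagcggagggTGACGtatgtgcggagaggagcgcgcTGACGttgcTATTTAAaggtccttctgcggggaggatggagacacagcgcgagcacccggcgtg
Plk2: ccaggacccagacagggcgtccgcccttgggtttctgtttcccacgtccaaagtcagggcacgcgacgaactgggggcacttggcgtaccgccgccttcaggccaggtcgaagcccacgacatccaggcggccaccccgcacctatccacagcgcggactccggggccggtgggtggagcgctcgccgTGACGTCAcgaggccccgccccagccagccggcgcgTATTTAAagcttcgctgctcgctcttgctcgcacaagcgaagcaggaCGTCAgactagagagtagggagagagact
The Homer1 window held 3 copies of the half-site, at -56 to -52, -40 to -36 and -14 to -10 from the start, and the TATA-like run at -5 to 2. The Plk2 window held a full element at -62 to -55, which itself contains a half-site on each strand, a further half-site on the minus strand at 22 to 26, and the TATA-like run at -26 to -20. Of 32851 RefSeq mouse promoters of the same length, 588 (1.79%) held TGACGTCA, 6837 (20.8%) held TGACG, 340 (1.03%) held at least 3 half-sites, 1481 (4.51%) held TATTTAA and 203 (0.618%) held both TGACG and TATTTAA. The TATTTAA run was picked after the sequences had been read. A second Homer1 promoter entry, at chr13:93307784-93308083, held none of these runs. Arc was not among the promoter entries. A match is a description of the letters and not evidence of binding.

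Npas4 itself was measured first, as a check of the labels. Its probe set lay between log2 5.35 and 5.94 in all 8 arrays at 0 h, between 11.20 and 12.04 in the 4 WT arrays at 1 h, and between 6.80 and 7.35 in the 4 KO arrays at 1 h, so every KO array at 1 h lay below every WT array. The mean of 9 excitatory neuron markers lay between 5.69 and 6.31 in MGE arrays and between 11.06 and 11.48 in CTX arrays. The mean of 13 interneuron markers lay between 11.30 and 11.87 against 8.97 and 9.64. By these means each culture carried the markers its label implies, and CTX cultures also carried interneuron markers. Not every marker followed its list. The excitatory marker Bcl11b lay between 12.83 and 13.39 in MGE and between 12.36 and 13.09 in CTX arrays. The interneuron marker Dlx2 lay between 9.25 and 12.64 against 9.75 and 11.40, and Dlx5 also overlapped. Astrocyte markers averaged 9.07 to 9.57 in MGE and 8.17 to 9.37 in CTX arrays. Oligodendrocyte markers averaged 8.05 to 8.51 in MGE and 7.15 to 7.66 in CTX arrays, and progenitor markers 8.42 to 8.95 and 7.17 to 8.44. Pan-neuronal markers averaged 12.74 to 13.03 in MGE and 12.97 to 13.15 in CTX arrays. Repeats correlated at 0.958 to 0.992 over the 26302 probe sets that passed a filter on low intensity (brighter than the median of their array on 2 or more arrays). The lowest agreement was in the MGE WT 0 h pair, where 2997 of these probe sets differed by more than 2-fold, and the next was in the CTX WT 6 h pair (r = 0.966, 2056 probe sets). In the MGE WT 0 h pair the second array had lower pan-neuronal markers (12.74 against 12.95) and higher astrocyte (9.57 against 9.13) and progenitor markers (8.95 against 8.42) than the first. In the CTX WT 6 h pair the second array had higher vascular (7.45 against 6.39) and astrocyte markers (9.37 against 8.99) and lower excitatory (11.06 against 11.48) and interneuron markers (9.12 against 9.64) than the first. Many results for Arc, Homer1 and Plk2 that rest on the second MGE WT 0 h array or on the CTX WT 6 h pair are therefore also given without the array in question. Others are not, among them the WT cell type differences in the Homer1 responses without either CTX WT 6 h array.

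Arc rose in every culture within 1 h of KCl and then fell, and at 6 h it was still called above rest in CTX but not in MGE cultures. The MGE WT arrays, first and second repeat, had log2 intensities of 6.41 and 6.34 before KCl, 10.07 and 9.60 after 1 h, and 6.49 and 6.43 after 6 h. The CTX WT arrays had 5.28 and 5.53, then 11.16 and 10.62, then 8.51 and 9.77. The part of the marker differences within the CTX WT 6 h pair in its Arc values was not tested. The 1 h arrays stood above all arrays of the other times in both cell types, and at 6 h the CTX arrays were well above their own 0 h arrays while the MGE arrays lay just above theirs. The MGE KO arrays had 6.04 and 6.21, then 10.20 and 9.49, then 6.50 and 6.63. The CTX KO arrays had 5.60 and 5.88, then 11.00 and 10.41, then 8.60 and 8.35. The KO arrays were also highest at 1 h in both cell types.

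In limma's fit to all 45037 probe sets, with Benjamini-Hochberg adjustment and a call at an adjusted p under 0.05, the Arc rise at 1 h was 3.47 ± 0.34 (SE) in MGE WT cultures (11.0-fold, adjusted p = 7.1e-05) and 5.49 ± 0.34 in CTX WT cultures (44.8-fold, adjusted p = 2.8e-07). Against these, 0.737% of all probe sets were called at 1 h in MGE WT and 1.65% in CTX WT cultures. At 6 h against 0 h the change was 0.09 ± 0.34 in MGE WT cultures (95% interval -0.63 to 0.80, adjusted p = 0.9), which was not called, where 14.3% of all probe sets were. In CTX WT cultures it was 3.74 ± 0.34 (13.3-fold, adjusted p = 1.6e-06), with a background of 22.9%. From 1 h to 6 h Arc fell by 3.38 on the log2 scale in MGE WT cultures (adjusted p = 3.2e-05, background 7.92%), and in CTX WT cultures it fell by 1.75 (adjusted p = 0.0017, background 18.8%). These 5 calls held in all 32 alternative fits. At 0 h Arc lay below the median of every array and no detection call was used here, so its folds are those of the deposited intensities and may understate the change. Without the second MGE WT 0 h array the MGE rise at 1 h was 3.43 ± 0.42 (adjusted p = 0.0017), and without the first or the second CTX WT 6 h array the CTX change at 6 h was 4.37 or 3.10. Without the same arrays in turn, the CTX change from 1 h to 6 h was -1.12 (adjusted p = 0.024) or -2.38.

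In KO cultures the Arc rise at 1 h was 3.72 ± 0.34 in MGE (adjusted p = 3.3e-05, background 0.662%) and 4.97 ± 0.34 in CTX (adjusted p = 1.2e-06, background 1.57%). At 6 h it was 0.44 ± 0.34 in MGE (adjusted p = 0.56, background 9.80%), not called, and 2.74 ± 0.34 in CTX (adjusted p = 2.4e-05, background 24.2%). From 1 h to 6 h Arc fell by 3.28 in MGE (adjusted p = 3.7e-05, background 7.72%) and then in CTX, where it fell by 2.23 (adjusted p = 0.00022, background 20.3%). Each of the 4 cultures thus had its peak at 1 h, and both CTX genotypes were called above rest at 6 h while neither MGE genotype was.

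**Figure D1:**
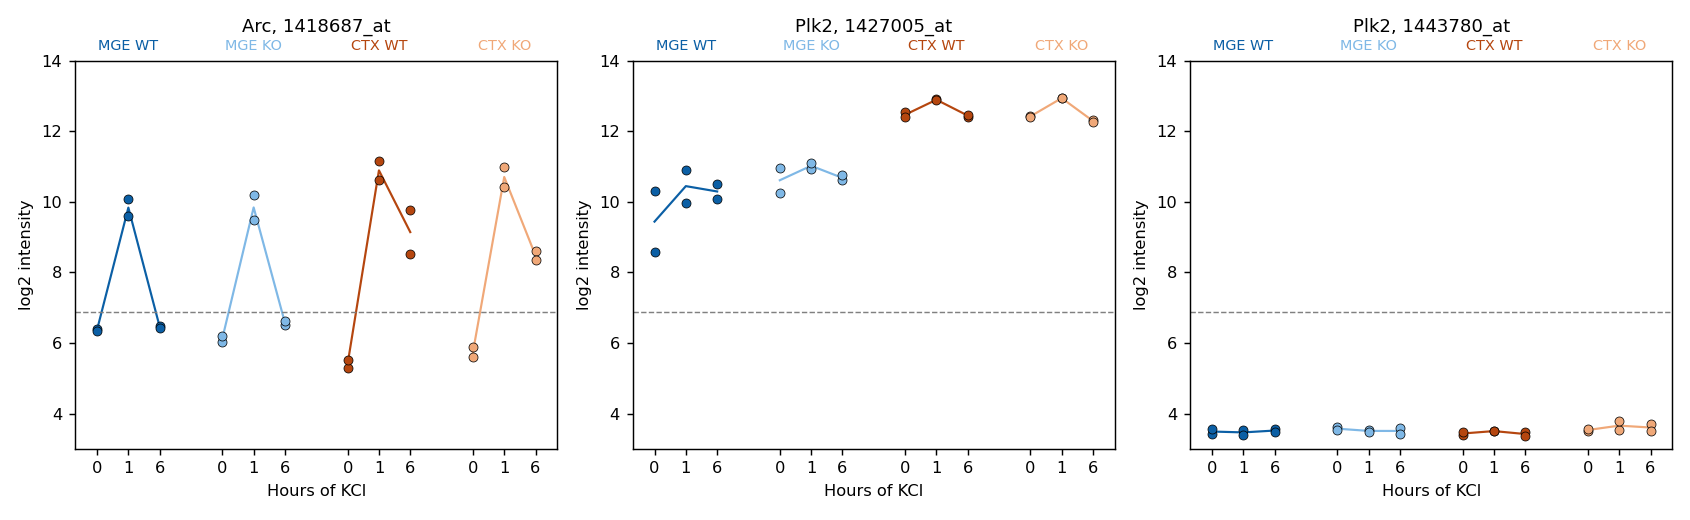
Log2 intensity (y axis) of the Arc probe set and of both Plk2 probe sets against hours of KCl (x axis) in the 4 cultures; each point is 1 array, lines join the means of 2 arrays, and the dashed line is the mean of the array medians. Arc peaks at 1 h in every culture, and at 6 h lies well above its 0 h arrays in CTX and just above them in MGE cultures. Plk2 1427005_at is higher in CTX than in MGE arrays, with 1 low MGE WT 0 h array at 8.56. Plk2 1443780_at lies between 3.37 and 3.79 throughout.

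The course of Arc differed between the cell types at 6 h. The change from 0 h to 6 h was lower in MGE than in CTX cultures, with MGE minus CTX at -3.65 ± 0.47 on the log2 scale in WT (adjusted p = 0.00061) and -2.29 ± 0.47 in KO (adjusted p = 0.013), where 6.57% and 4.38% of all probe sets were called. The WT difference was -3.68 without the second MGE WT 0 h array and -4.28 or -3.02 without the first or second CTX WT 6 h array, and was called each time. The KO difference lost its call without the second MGE KO 0 h array (-2.21, adjusted p = 0.053) or the first CTX KO 0 h array (-2.15, adjusted p = 0.057). For the rise at 1 h the cell types differed by -2.02 ± 0.47 in WT (adjusted p = 0.32, background 0.0222%) and by -1.25 ± 0.47 in KO (adjusted p = 1, background 0.00444%), neither called. For the change from 1 h to 6 h the difference was -1.63 in WT (adjusted p = 0.076, background 3.48%) and -1.04 in KO (adjusted p = 0.32, background 3.24%). The first of these was called at -2.26 (adjusted p = 0.0057) when the first CTX WT 6 h array was left out.

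The Arc level itself was lower in MGE than in CTX cultures at 6 h, with a difference of -2.68 ± 0.34 in WT (adjusted p = 1.6e-05, background 39.9%) and -1.91 in KO (adjusted p = 0.00035, background 39.6%). The WT difference was -3.31 or -2.05 without the first or second CTX WT 6 h array. At 1 h the difference was -1.06 in WT (adjusted p = 0.022, background 37.4%) and -0.86 in KO (adjusted p = 0.061, background 32.5%). The WT call at 1 h was lost without the second MGE WT 1 h array (-0.82) or the first CTX WT 1 h array (-0.78). The KO difference was called at -1.22 without the first MGE KO 1 h array. It was also called, at an unchanged -0.86, without either CTX WT 6 h array. Those arrays are not in this comparison but enter the spread that all groups share in the fit. At 0 h Arc was higher in MGE WT than in CTX WT cultures by 0.96 ± 0.34 (adjusted p = 0.029, background 44.6%). In KO the difference was 0.39 and not called (adjusted p = 0.41, background 32.4%). The arrays of the cell types did not overlap in either genotype, which says little with 2 arrays a group. The WT call at 0 h was lost in 6 of 31 alternatives, which gave 0.76 to 1.09, among them without each of its 4 arrays in turn. These are cultures of mixed cells, so fewer cells that make a transcript and less of it per cell cannot be told apart. The excitatory, interneuron and oligodendrocyte markers given above differ between the same arrays, as progenitor and pan-neuronal markers do with some overlap. The part of these markers in any cell type difference was not tested.

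Ordered by mean, Arc was highest in the 4 groups at 1 h, from 10.89 in CTX WT and 10.70 in CTX KO, whose arrays overlap, to 9.84 in both MGE genotypes, whose arrays also overlap. The CTX groups at 6 h followed at 9.14 in WT and 8.47 in KO. The WT group overlapped the MGE WT 1 h arrays above it and the KO group below it. The other 6 groups lay between 5.41 and 6.57, below the array medians of about 6.87 in log2, and Arc exceeded its array's median in 12 of 24 arrays.

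Homer1 rose after KCl at 3 of its 6 probe sets, each with its own timing and cell type pattern, while the other 3 stayed almost level in CTX cultures and were called higher at 6 h in MGE WT cultures. Probe set 1436387_at rose in all 4 cultures. The MGE WT arrays read 9.13 and 8.89 before KCl, 10.60 and 10.70 after 1 h, and 12.53 and 11.84 after 6 h. The CTX WT arrays read 11.26 and 10.93, then 12.37 and 11.46, then 13.40 and 13.07. In both cell types the arrays of the 3 times did not overlap, and the highest values came at 6 h. The KO arrays read 9.11 and 9.39, then 10.53 and 10.64, then 12.42 and 12.13 in MGE, and 11.21 and 11.12, then 12.41 and 11.81, then 13.41 and 13.35 in CTX. They showed the same order of times without overlap.

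By 6 h the 1436387_at signal had risen by 3.17 ± 0.28 in MGE WT (9.03-fold, adjusted p = 6e-06), 3.03 ± 0.28 in MGE KO (adjusted p = 8.7e-06), 2.14 ± 0.28 in CTX WT (4.42-fold, adjusted p = 4.3e-05) and 2.21 ± 0.28 in CTX KO cultures (adjusted p = 3e-05). The MGE WT rise was 3.05 (adjusted p = 2e-04) without the second MGE WT 0 h array, and the CTX WT rise 1.98 (adjusted p = 0.00079) or 2.31 (adjusted p = 0.00023) without the first or second CTX WT 6 h array. At 1 h it had risen by 1.64 ± 0.28 in MGE WT (adjusted p = 0.0088) and by 1.33 ± 0.28 in MGE KO cultures (adjusted p = 0.039). The CTX values at 1 h were 0.82 in WT (adjusted p = 0.24) and 0.95 in KO (adjusted p = 0.15), not called; with the replicate block the KO value was called (adjusted p = 0.044). The MGE WT call at 1 h was lost without either 1 h array or without the second 0 h array (1.52 to 1.69, adjusted p from 0.061 to 0.11), and the MGE KO call held in 17 of 31 alternatives. From 1 h to 6 h it rose by 1.54 in MGE WT, 1.69 in MGE KO, 1.32 in CTX WT and 1.27 in CTX KO cultures (adjusted p of 0.003, 0.0014, 0.0032 and 0.0038). Of these, the value was 1.19 without the first MGE WT 6 h array, 0.87 without the second CTX WT 1 h array and 0.97 without the second CTX KO 1 h array, none of which was called.

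Probe set 1425671_at was close to the bottom of the intensity scale at rest and rose steeply in CTX cultures. The CTX WT arrays read 4.86 and 4.70 before KCl, 7.49 and 5.72 after 1 h, and 10.45 and 9.98 after 6 h. The CTX KO arrays read 5.0 and 4.72, then 7.29 and 6.33, then 10.47 and 10.38. The 1 h pairs were wide apart, and the arrays of the 3 times did not overlap in either genotype. In MGE cultures the values were 3.86 and 3.94, then 3.90 and 4.20, then 4.95 and 4.64 in WT, and 3.93 and 3.89, then 4.06 and 4.18, then 5.04 and 4.74 in KO. The MGE 6 h arrays lay above all other MGE arrays but far below the CTX arrays of the same time, and only 6 of 24 arrays, all from CTX cultures, exceeded the array median.

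The 1425671_at rise at 6 h was 5.44 ± 0.40 in CTX WT (adjusted p = 3.1e-07) and 5.56 ± 0.40 in CTX KO cultures (adjusted p = 2.1e-07). Without the first or second CTX WT 6 h array the WT rise was 5.20 or 5.67 (adjusted p of 8.5e-06 and 3.7e-06). No fold is given because the 0 h arrays lay near the bottom of the scale. In MGE cultures it was 0.89 ± 0.40 in WT (95% interval 0.04 to 1.74) and 0.98 ± 0.40 in KO (0.12 to 1.83), both with an adjusted p of 0.16. These MGE values were called when MGE arrays were fitted alone (adjusted p = 0.0092 and 0.0061) and when either CTX WT 1 h array was left out (0.03 and 0.022). At 1 h the rise was 1.83 in CTX WT (adjusted p = 0.029) and 1.95 in CTX KO (adjusted p = 0.021). Both calls were lost with CTX arrays fitted alone (adjusted p = 0.19 and 0.16), and without either 0 h array or the first 1 h array of the genotype, with 0.94 and 1.47 in the last case. The WT call was also lost with a pseudocount of 16 (1.42, limma adjusted p = 0.064). The change from 0 h to 6 h was lower in MGE than in CTX cultures, with MGE minus CTX at -4.55 ± 0.57 in WT (adjusted p = 0.00049) and -4.58 ± 0.57 in KO (adjusted p = 0.00045). Without the second MGE WT 0 h array the WT difference was -4.51 (adjusted p = 0.0027).

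Probe set 1421768_a_at was not called at 1 h in any culture (changes of -0.04 to 0.09) and rose at 6 h, more in CTX than in MGE cultures. CTX WT arrays read 9.69 and 9.57 before KCl, 9.66 and 9.62 after 1 h, and 11.95 and 11.75 after 6 h. MGE WT arrays read 8.23 and 8.04, then 8.17 and 8.04, then 9.12 and 8.63. The 0 h and 1 h arrays overlapped in both cell types, and the 6 h arrays lay above them. CTX KO arrays read 9.64 and 9.65, then 9.76 and 9.70, then 12.02 and 12.03, and MGE KO arrays 8.35 and 7.95, then 8.30 and 7.91, then 9.12 and 8.58. The rise at 6 h was 2.22 ± 0.19 in CTX WT (4.67-fold, adjusted p = 1.2e-06), 2.38 ± 0.19 in CTX KO (adjusted p = 5.8e-07), 0.74 ± 0.19 in MGE WT (adjusted p = 0.019) and 0.70 ± 0.19 in MGE KO cultures (adjusted p = 0.029). The CTX WT rise was 2.12 or 2.32 without the first or second CTX WT 6 h array. The MGE calls were lost with MGE arrays fitted alone (adjusted p = 0.093 and 0.13) and without the first 6 h array (0.49 and 0.43) or the second 0 h array of the same genotype (0.64 and 0.51, adjusted p of 0.15 and 0.25). MGE minus CTX, the change from 0 h to 6 h differed by -1.49 ± 0.27 in WT (adjusted p = 0.0054) and -1.67 ± 0.27 in KO (adjusted p = 0.0028), and by -1.58 in WT without the second MGE WT 0 h array (adjusted p = 0.014).

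The remaining Homer1 probe sets, 1425710_a_at, 1437363_at and 1439662_at, changed little with KCl in CTX cultures. Their CTX WT means at 0 h and 6 h were 9.16 and 9.23, 12.19 and 12.03, and 12.16 and 11.89 in that order, and none of their 12 CTX changes from 0 h at 1 h or 6 h was called. In MGE WT cultures each was higher at 6 h than at 0 h, by 0.55 ± 0.15, 0.64 ± 0.18 and 0.67 ± 0.17 (adjusted p of 0.022, 0.029 and 0.017). Each of these calls was lost without the second MGE WT 0 h array, which left 0.42, 0.30 and 0.38 (adjusted p of 0.21, 0.4 and 0.25), and without the first MGE WT 6 h array. In MGE KO cultures the same changes were 0.13, 0.25 and 0.23, not called. For 1439662_at the change from 0 h to 6 h was higher in MGE than in CTX WT cultures by 0.94 ± 0.24 (adjusted p = 0.032), but by 0.65 (adjusted p = 0.13) without the second MGE WT 0 h array. Probe set 1437363_at had the highest mean of the 6 over all arrays, so a summary that keeps only the brightest probe set of each gene gives Homer1 a flat course in CTX cultures.

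**Figure D2:**
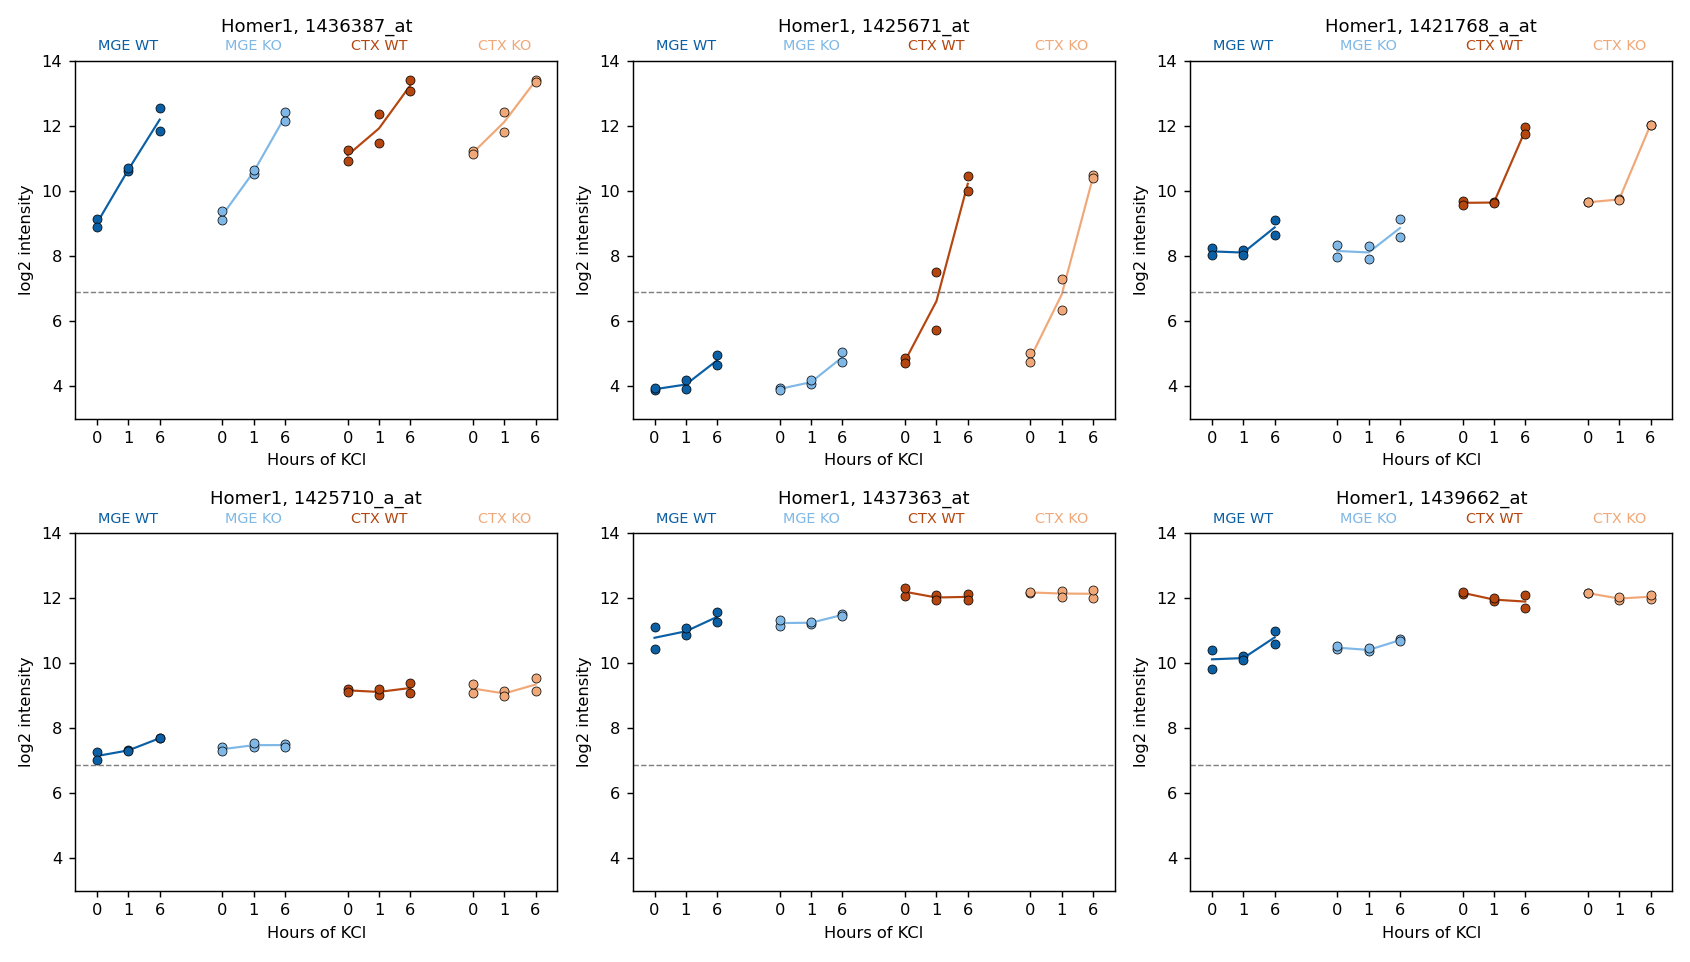
Log2 intensity (y axis) of the 6 Homer1 probe sets against hours of KCl (x axis) in the 4 cultures, drawn as for Arc. The upper row holds the probe sets that rose, 1436387_at in all cultures, 1425671_at from 5.0 or less at 0 h to 9.98 or more at 6 h in CTX cultures, and 1421768_a_at only after 1 h; the lower row holds those that stayed nearly level in CTX cultures.

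Because a fixed difference in probe binding cancels in time, the 3 rising probe sets were also read against the mean of the 3 that were level in CTX cultures within each array. In MGE WT cultures that mean itself held the called rises at 6 h given above. This was chosen after the values were seen, so it carries no test, and its zero point has no meaning as a level. For 1436387_at the difference lay between -0.54 and 0.13 in the 8 arrays at 0 h, between 0.41 and 1.37 at 1 h, and between 1.99 and 2.50 at 6 h. The 3 times did not overlap over both cell types and genotypes together, and at 6 h the group means were 2.22 in MGE WT, 2.39 in MGE KO, 2.19 in CTX WT and 2.21 in CTX KO. For 1421768_a_at the CTX arrays moved from between -1.64 and -1.44 at 0 h to between 0.74 and 0.98 at 6 h, while the MGE arrays lay between -1.76 and -1.05 at 0 h and between -1.27 and -0.80 at 6 h, which overlap. For 1425671_at the CTX arrays moved from between -6.51 and -6.12 to between -1.02 and -0.57, and the MGE arrays from between -5.82 and -5.15 to between -5.21 and -4.88, which also overlap. Of the 3, 1436387_at was the one whose 6 h values relative to that mean overlapped between MGE and CTX cultures.

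All 6 Homer1 probe sets were lower in MGE than in CTX cultures. For 1436387_at the difference was -2.08 in WT and -1.92 in KO at 0 h, and -1.05 and -1.10 at 6 h, all called. The WT value at 6 h lost its call without the second MGE array (-0.70) or the first CTX array (-0.89), and the KO value without the second MGE array (-0.96). For 1425671_at it grew from -0.88 and -0.95 at 0 h, not called (adjusted p = 0.088 and 0.082), to -5.42 and -5.54 at 6 h (adjusted p = 1.1e-07 and 9e-08). With the replicate block the differences at 0 h were called (adjusted p = 0.029 and 0.025). For 1421768_a_at it was -1.49 in WT at 0 h and -2.98 at 6 h. For the 3 probe sets level in CTX cultures the WT differences ran from -2.04 to -1.41 at 0 h and from -1.54 to -0.61 at 6 h, and the KO ones from -1.87 to -0.94 and from -1.86 to -0.65. All of these were called, and those of 1437363_at at 6 h lost their call without the second MGE array of the genotype (-0.47 in WT and -0.62 in KO), the first CTX WT array (-0.53) or the second CTX KO array (-0.53). Without the second MGE WT 0 h array the WT differences at 0 h were -1.96 for 1436387_at, -1.39 for 1421768_a_at, and -0.91 (adjusted p = 0.2) for 1425671_at. They were -1.89, -1.07 and -1.75 for 1425710_a_at, 1437363_at and 1439662_at. Without the first or second CTX WT 6 h array the WT differences at 6 h were -5.19 or -5.66 for 1425671_at and -2.88 or -3.08 for 1421768_a_at. Over the probe sets of Arc, Homer1 and Plk2, 6 of which are Homer1, 44 of 54 tests of MGE against CTX were called, 43 of them lower in MGE. In these comparisons 32.4% to 44.6% of all probe sets were called in either direction.

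In the order of the 12 group means, all CTX groups stood above all MGE groups for the 3 probe sets level in CTX cultures and for 1421768_a_at, but not for the other rising ones. For 1436387_at the CTX groups at 6 h led at 13.38 in KO and 13.24 in WT, whose arrays overlapped, and the MGE groups at 6 h came next at 12.28 and 12.18. MGE WT at 0 h was lowest at 9.01, and overlapped MGE KO at 0 h at 9.25. For 1425671_at the CTX groups at 6 h (10.42 and 10.21) and 1 h (6.81 and 6.61) stood above all others, and the MGE groups at 6 h overlapped the CTX groups at 0 h.

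Plk2, read by probe set 1427005_at, was high in CTX cultures at all times and moved little with KCl. CTX WT arrays read 12.54 and 12.40 before KCl, 12.91 and 12.88 after 1 h, and 12.41 and 12.48 after 6 h. CTX KO arrays read 12.43 and 12.42, then 12.94 and 12.94, then 12.33 and 12.26. In both genotypes the 1 h arrays lay above the arrays of the other times. MGE WT arrays read 10.31 and 8.56, then 9.98 and 10.91, then 10.50 and 10.09, and MGE KO arrays 10.25 and 10.97, then 10.94 and 11.11, then 10.61 and 10.75. The MGE arrays of all times overlapped in WT, with the second MGE WT 0 h array, the one that stands apart in other genes, lowest.

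No Plk2 change with KCl was called in the fit to all arrays. At 1 h the changes were 0.43 ± 0.40 in CTX WT (95% interval -0.43 to 1.28), 0.52 ± 0.40 in CTX KO (-0.34 to 1.37), 1.01 ± 0.40 in MGE WT (0.15 to 1.86) and 0.41 ± 0.40 in MGE KO cultures (-0.44 to 1.27), with adjusted p from 0.58 to 1. That fit shares its error over all 12 groups, and the widest Plk2 pair is an MGE one. Fitted alone, CTX arrays gave a standard error of 0.10 and a change from 1 h to 6 h of -0.45 in WT (adjusted p = 0.015) and -0.65 in KO (adjusted p = 0.0023), both called as falls. In the same fit the rises at 1 h had adjusted p of 0.12 and 0.062. The MGE WT rise at 1 h was 0.13 without the second 0 h array and 1.88 without the first, so that 1 array decides its size. The MGE WT change at 6 h was 0.85, not called, and 1.73 without the first 0 h array. The 6 h arrays, at 10.50 and 10.09, lay on either side of that first array at 10.31.

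Plk2 was lower in MGE than in CTX cultures at every time, with differences of -3.03 at 0 h, -2.45 at 1 h and -2.15 at 6 h in WT (adjusted p of 2.9e-05, 0.00023 and 0.00056) and -1.81, -1.92 and -1.61 in KO (adjusted p of 0.0029, 0.002 and 0.0049). Without the second MGE WT 0 h array the WT difference at 0 h was -2.15 ± 0.31 (adjusted p = 0.00015), and without the first or second CTX WT 6 h array the difference at 6 h was -2.18 or -2.12. All 6 CTX group means, from 12.29 to 12.94, stood above the highest MGE mean of 11.02, and the 5 lowest groups, all MGE, overlapped each neighbour in the order. The other Plk2 probe set, 1443780_at, lay between 3.37 and 3.79, within the lowest 6.13% of each array's intensities, had no call in any comparison, and was the one member that did not pass the filter on low intensity. At that intensity it could not show whether Plk2 changed.

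**Figure D3:**
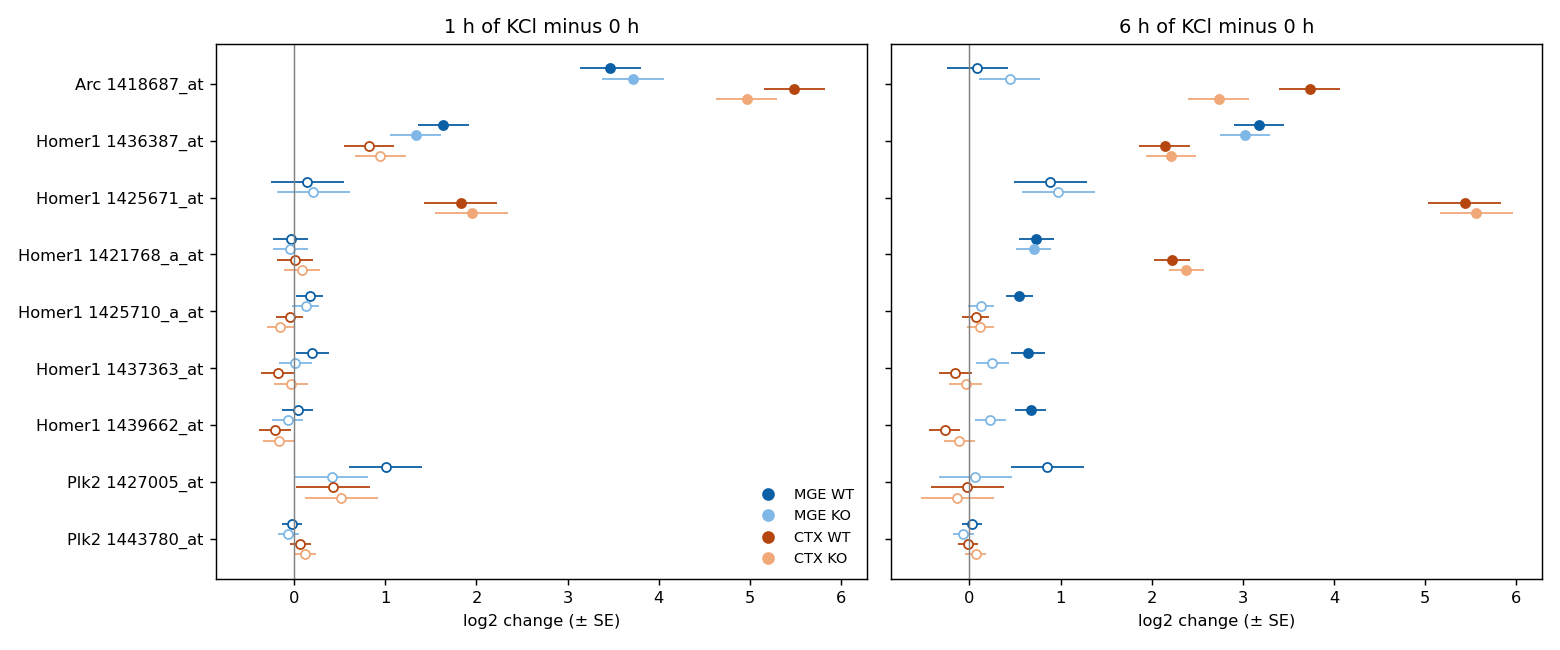
Change in log2 intensity (x axis) from 0 h to 1 h (left) and 6 h (right) of KCl for the 9 probe sets in the 4 cultures; points are differences of 2-array means, bars are ± SE from limma, and filled points were called. Arc leads at 1 h with 5.49 in CTX WT cultures, and at 6 h the called CTX changes are those of Arc (3.74 in WT and 2.74 in KO) and of 3 Homer1 probe sets, up to 5.56 in CTX KO cultures. No Plk2 change is called, and the larger ones of 1427005_at in MGE WT cultures rest on 0 h arrays that lie apart, at 10.31 and 8.56.

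Over the 9 probe sets in 6 comparisons, 21 of 54 tests of the response to KCl were called in WT cultures, 19 of them rises. In KO cultures 17 of 54 were called, 15 of them rises. In the same comparisons the calls over all probe sets ran from 0.737% to 22.9% in WT and from 0.662% to 24.2% in KO cultures. Of the 9 probe sets 6 are Homer1, and all of these calls are of Arc or Homer1. The tests share arrays and time points, so they are not separate responses. By cell type and time in WT cultures, 2 of 9 probe sets were called in MGE and 2 of 9 in CTX at 1 h against 0 h, beside 0.737% and 1.65% of all probe sets. At 6 h against 0 h, 5 of 9 were called in MGE, all Homer1, and 4 of 9 in CTX, beside 14.3% and 22.9%. The MGE count at 6 h was 1 of 9, Homer1 1436387_at, without the first MGE WT 6 h array or without the second MGE WT 0 h array. The CTX count was 4 of 9 without any 1 of its arrays. At 1 h the counts were 1 of 9 without either MGE WT 1 h array, the second MGE WT 0 h array, either CTX WT 0 h array or the first CTX WT 1 h array.

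No member was called between KO and WT cultures. With limma, 0 of 54 comparisons were called, 2 of 54 had an unadjusted p under 0.05, and over all probe sets 5.36% of such comparisons did. The adjusted calls over all probe sets were 0.0200% at 0 h, 0.0822% at 1 h and 0.0200% at 6 h in MGE, and 0 at 0 h (939 probe sets at an unadjusted p under 0.05), 0.00222% at 1 h and 0.0533% at 6 h in CTX cultures. For Arc, KO minus WT was 0.0049 at 1 h in MGE (95% interval -0.71 to 0.72) and -0.19 in CTX cultures (-0.90 to 0.53). At 6 h in CTX it was -0.67 (-1.38 to 0.05, adjusted p = 1), and -1.30 (adjusted p = 0.07) or -0.037 without the first or second WT array. For the 3 rising Homer1 probe sets at 6 h the differences ran from -0.02 to 0.10 in MGE and from 0.14 to 0.21 in CTX cultures, with the widest interval from -0.76 to 0.95 in MGE and from -0.64 to 1.06 in CTX for 1425671_at. The 2 comparisons with a low unadjusted p were Plk2 1427005_at (1.17, 95% interval 0.32 to 2.03) and Homer1 1437363_at (0.45, 0.06 to 0.84), both at 0 h in MGE cultures. Without the second MGE WT 0 h array they were 0.30 and 0.11, and without the first 2.05 (adjusted p = 0.00082) and 0.79 (adjusted p = 0.0062).

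The change of the KCl response with genotype was not called either, in 0 of 54 comparisons with limma and 0 of 54 at an unadjusted p under 0.05, where 2.10% of all such comparisons passed the latter. Over all probe sets 0.00222% to 0.00444% were called: 0.00222% at 1 h, 0.00444% at 6 h and 0.00444% from 1 h to 6 h in MGE, and 0.00222%, 0.00444% and 0.00222% in CTX cultures. The Arc rise at 6 h in CTX cultures differed between KO and WT by -1.0 (95% interval -2.01 to 0.01, adjusted p = 1), and this was -1.63 (adjusted p = 0.23) or -0.37 without the first or second CTX WT 6 h array. For the 1425671_at rise at 6 h in CTX cultures KO minus WT was 0.13 (-1.08 to 1.33), and for 1436387_at in MGE cultures -0.15 (-0.98 to 0.69). These intervals are wide, and a p that misses the threshold does not show that the responses are alike.

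**Figure D4:**
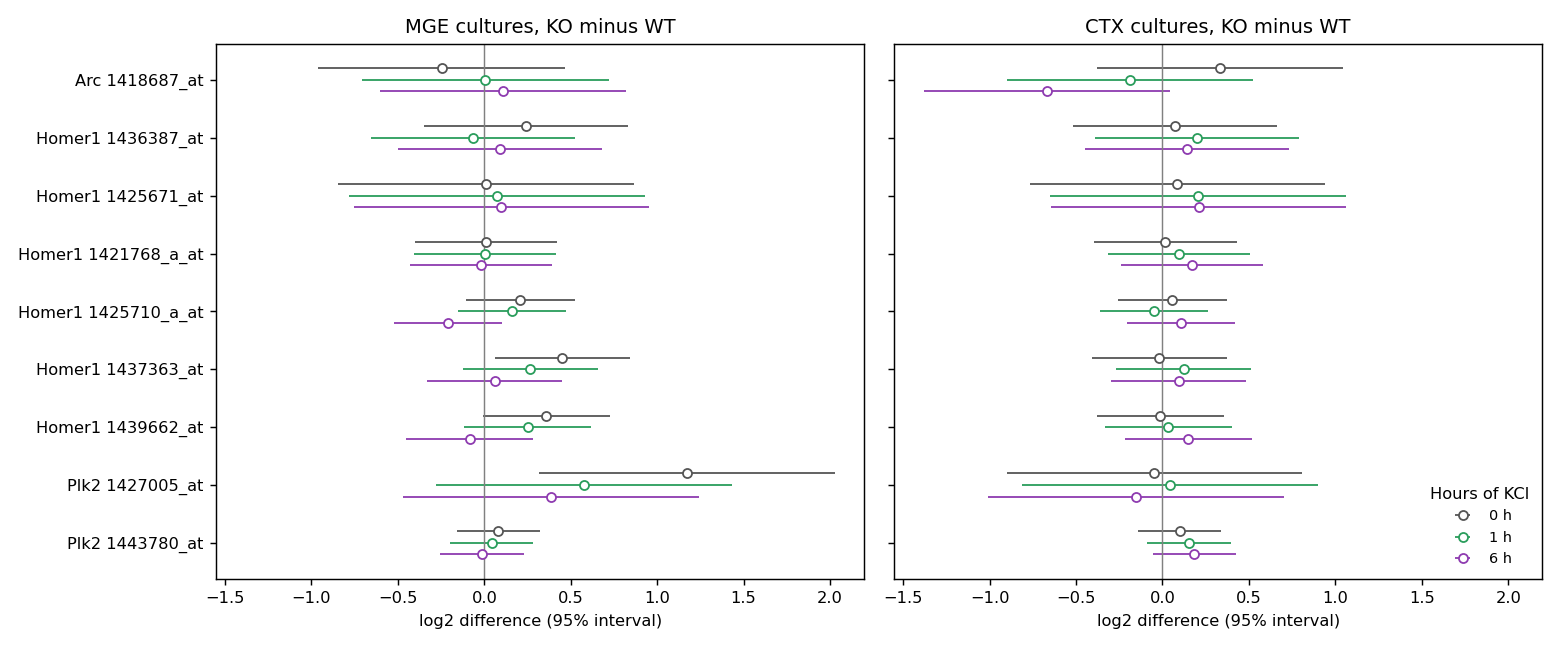
KO minus WT in log2 intensity (x axis) for the 9 probe sets at 0, 1 and 6 h in MGE (left) and CTX cultures (right); points are differences of 2-array means and bars are 95% intervals from limma. Of the 54 intervals, 2 leave out 0, both in MGE cultures at 0 h and neither called after adjustment.

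The genes whose 12 group means ran most like a member's were taken from 11787 genes by Pearson correlation, as a description over 12 means that share their arrays. For Arc they were Egr1 (r = 0.980), Btg2 (0.973), Egr2 (0.970), Junb (0.964) and Dusp1 (0.954), of which Egr1, Egr2 and Junb are immediate early transcription factors and Dusp1 is a phosphatase that ends MAP kinase signalling. For Homer1 1437363_at they were Ufm1, Baz2a, Aff3, Zfp770 and Mtpn (0.994 to 0.996), and for Plk2 1427005_at Tbp, Hace1, Azin1, Fnbp1l and Slc23a2 (0.986 to 0.992), means that mostly separate the cell types. For the rising Homer1 probe sets, added after their values were seen, the closest were Klhl29 for 1436387_at (0.980), Sbds (0.990) and Rel (0.988) for 1425671_at, and Gxylt2 (0.990) and Ppat (0.989) for 1421768_a_at. Among the members the Homer1 probe sets level in CTX cultures ran together (0.963 to 0.987) and with Plk2 1427005_at (0.938 to 0.943), 1421768_a_at ran with 1425671_at (0.959), and Arc correlated at 0.10 to 0.39 with the other members.

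Of the lists read beside the members, 6 of 16 regulators and 2 of 19 effectors were called higher at 1 h in MGE WT cultures. The counts were 7 of 16 and 7 of 19 in CTX WT cultures. None of the listed partners of the 3 proteins was called at 1 h in either. At 1 h 0.737% of all probe sets were called in MGE WT and 1.65% in CTX WT cultures, so lists of this size could hold no call at that share. Each gene of a list was read by its brightest probe set, and the lists stand beside 18193 genes. Of these, 54 rose and 32 fell at 1 h in MGE WT cultures (median change -0.03), and 99 and 45 at 1 h in CTX WT (median 0.0072). At 6 h the counts were 1037 and 1883 in MGE WT (median -0.09) and 1417 and 2978 in CTX WT (median -0.02). Of 16 regulators of the transcription of Arc, Homer1 and Plk2, 6 rose and 0 fell at 1 h in MGE WT (median 0.42), led by Fosb (6.51 ± 0.42, adjusted p = 7.5e-07), Fos (6.24 ± 0.35), Npas4 (5.85 ± 0.25) and Egr3 (4.41 ± 0.39). In CTX WT cultures 7 rose and 0 fell (median 0.17), led by Fosb (7.50), Npas4 (6.03), Fos (5.69) and Junb (4.54). At 6 h 9 rose and 1 fell in MGE WT and 8 rose and 2 fell in CTX WT cultures, with Fos still higher by 5.35 ± 0.35 and 5.50 ± 0.35 and Fosb by 3.59 ± 0.42 and 7.20 ± 0.42. The members of this list named here were called in all 32 alternatives at 1 h.

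Of 19 other activity-induced effectors, 2 rose and 0 fell at 1 h in MGE WT cultures, Vgf, a secreted neuropeptide precursor (2.25 ± 0.42), and Dusp1 (1.15 ± 0.13). In CTX WT cultures 7 rose and 0 fell, among them Vgf (3.45 ± 0.42), the cyclooxygenase Ptgs2 (3.01 ± 0.66), the neurotrophin Bdnf (2.58 ± 0.44) and Dusp1 (1.93 ± 0.13). Dusp1 in both and Vgf in CTX cultures were called in all 32 alternatives, Vgf in MGE and Bdnf in CTX cultures in 29, and Ptgs2 in 27. At 6 h 7 rose and 0 fell in MGE WT (median 0.86), led by Vgf (3.05), Nptx2 (2.55), Nptx1 (2.10) and Bdnf (1.77), and 12 rose and 1 fell in CTX WT (median 1.67), led by Bdnf (5.38), Nptx2 (4.95), Ptgs2 (4.57) and the small GTPase Gem (4.48). Nptx1 and Nptx2 are pentraxins that cluster AMPA receptors. The 4 CTX genes named at 6 h were called in all 32 alternatives, and of the 4 MGE genes Vgf alone was.

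Of 24 Arc partners and proteins of AMPA receptor traffic, 0 were called at 1 h in either WT culture by limma, with 0 at an unadjusted p under 0.05 in MGE and 1 in CTX. The largest changes, none called, were Notch1 (0.38) and Pick1 (-0.32) in MGE and Gripap1 (0.34) and Gria4 (-0.20) in CTX cultures. At 6 h 1 rose and 3 fell in MGE WT, and 3 rose and 4 fell in CTX WT cultures. Over all probe sets 0.737% and 1.65% were called at 1 h in MGE WT and CTX WT cultures, and 14.3% and 22.9% at 6 h. At both times the counts of this list were not far from those shares. The shares are over probe sets, while a list gene is read by its brightest probe set. The counts over all genes, read that way, are given above. Grip1, which anchors AMPA receptors, rose by 0.81 ± 0.11 in MGE (adjusted p = 0.00018) and 0.63 ± 0.11 in CTX (adjusted p = 0.00046), and the receptor subunit Gria4 changed by -0.39 ± 0.12 in MGE and -0.68 ± 0.12 in CTX. The other calls were Pick1 (-0.72), which binds AMPA receptors, and the endocytic GTPase Dnm2 (-0.44) in MGE, and among the CTX calls Cacng3 (0.88) and Cacng2 (-0.54), auxiliary subunits of AMPA receptors. Grip1 in both and Gria4 in CTX were called in all 32 alternatives, Gria4 in MGE in 14, Dnm2 in 19, Pick1 in 28, Cacng2 in 29 and Cacng3 in 31. Before KCl 14 of the 24 were higher and 5 lower in MGE than in CTX WT cultures, where 27.8% and 20.7% of all genes were, with Cacng3 (2.26 ± 0.21), Gria1 (1.83 ± 0.21) and Cacng2 (1.59 ± 0.15) higher in MGE and Sh3gl3, an endophilin, lower (-2.15 ± 0.26). Without the second MGE WT 0 h array these 4 differences were 2.29, 1.75, 1.45 and -1.64, each still called.

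Of 15 Homer1 partners and postsynaptic scaffold proteins, 0 were called at 1 h by limma (1 at an unadjusted p under 0.05 in MGE, 0 in CTX), where the largest changes were Shank3 (0.52) and Homer3 (-0.32) in MGE and Shank3 (0.35) and Grm5 (-0.15) in CTX cultures. At 6 h 2 rose and 1 fell in each cell type, namely Dlgap2 (1.12 ± 0.34), Shank3 (0.74 ± 0.20) and Homer2 (-0.87 ± 0.24) in MGE WT, and Dlgap2 (1.06 ± 0.34), Dlg1 (1.0 ± 0.26) and Dlg3 (-0.76 ± 0.12) in CTX WT cultures. Of these, Dlg3 in CTX was called in all 32 alternatives, and Dlg1 and Dlgap2 in CTX in 29 each. Without the first CTX WT 6 h array Dlg1 was 0.43 and Dlgap2 0.52, neither called, and both also lost their call without either CTX WT 0 h array. The 3 MGE calls were lost with MGE arrays fitted alone. Homer2, a long Homer family member, was also lower in MGE than in CTX WT cultures before KCl (-2.04 ± 0.24, adjusted p = 9e-06, and -1.74 without the second MGE WT 0 h array, adjusted p = 0.00024). Of 13 polo-like kinases, Plk2 substrates and their partners, 0 were called at 1 h (2 at an unadjusted p under 0.05 in MGE and 1 in CTX), where the largest changes were Plk3 (0.50) and Plk4 (0.49) in MGE and Plk3 (0.83) and Rap2b (-0.41) in CTX cultures. At 6 h 1 rose and 2 fell in MGE WT and 1 rose and 3 fell in CTX WT cultures. Over all probe sets 0.737% and 1.65% were called at 1 h in MGE WT and CTX WT cultures, and 14.3% and 22.9% at 6 h. At both times the counts of this list and of the Homer1 partners were not far from those shares. These too are shares of probe sets, and the counts over all genes are given above. The small GTPase Rap1a fell in both, with changes of -0.71 ± 0.14 in MGE WT and -1.39 ± 0.14 in CTX WT cultures (adjusted p = 4.2e-06). Cdk5r1, the activator of the kinase Cdk5, changed by -0.68 in MGE and -0.65 in CTX, and Rap1b by 0.55 in MGE, the last called in 18 of 32 alternatives. In CTX cultures Plk3 rose by 1.33 ± 0.24 (adjusted p = 0.00067) and Sipa1l1, the Plk2 substrate, changed by -0.41 ± 0.13 (adjusted p = 0.028), the latter called in 29 of 32 alternatives. Between KO and WT cultures, Npas4 itself was called lower at 1 h and 6 h in both cell types, and no other gene of the 5 lists was called at any time.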

How the data were processed

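The values were RMA intensities on a linear scale that the authors deposited for 24 arrays, computed by RMA per the submitters' processing notes, whose version is not given in the sources used here. Control probe sets were left out, leaving 45037, and gene names came from the platform annotation, where 34945 probe sets had 1 symbol, 932 several and 9160 none. Intensities were taken to log2 with no pseudocount and fitted in limma 3.58.1 (R 4.3.3) with 12 group means over all probe sets, with no filter and Benjamini-Hochberg adjustment within each of 36 comparisons. A call is an adjusted p under 0.05, and a list gene is read by its probe set of highest mean. The precision is limited by 2 arrays a group.

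The members and the lists were chosen with earlier results of these data known. Named from each list were up to 4 called genes of largest change or, with none called, the 2 of largest change; for likeness, the 5 genes of highest correlation, or the first of them. List genes not on the annotated table were not analysed here. Alternatives were the filter on low intensity, 1 probe set a gene, a replicate block, quantile and cyclic loess scaling, a trended and robust variance, each cell type fitted alone, a pseudocount of 16, and each array left out. Deviations of arrays with the same repeat number correlated at over 0.1 in 15 of 15 pairs of CTX groups and 12 of 15 of MGE groups, so the numbers were treated as a possible pairing only. The fit was tested on simulated data with independent noise of equal spread in all groups. The simulation held no array that stands apart and no effect shared by arrays of the same repeat number, so it does not cover these.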

Additional observations from a re-analysis of the deposited data

Results flagged for a closer look

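These results are listed because a test of the difference between MGE and CTX cultures in the response to KCl was called by limma's adjusted p; 11 of 54 such tests were called over the 9 probe sets, and no explanation was tested. Over all probe sets the same test called 0.0222% at 1 h against 0 h, 6.57% at 6 h against 0 h and 3.48% at 6 h against 1 h in WT, and 0.00444%, 4.38% and 3.24% in KO cultures. For Arc, MGE minus CTX in the change from 0 h to 6 h was -3.65 in WT and -2.29 in KO cultures, the latter not called without the second MGE KO 0 h array (-2.21, adjusted p = 0.053) or the first CTX KO 0 h array (-2.15, adjusted p = 0.057). For Homer1 1425671_at it was -4.55 and -4.58 from 0 h to 6 h, and -2.86 and -2.84 from 1 h to 6 h. The WT value from 1 h to 6 h was not called without the second MGE WT 6 h array (-2.71, adjusted p = 0.061), and the KO value not without the second MGE KO 1 h array (-2.79, adjusted p = 0.059), the second MGE KO 6 h array (-2.69, adjusted p = 0.062) or the second CTX KO 1 h array (-2.36, adjusted p = 0.073). For Homer1 1421768_a_at it was -1.49 and -1.67 from 0 h to 6 h, and -1.44 and -1.54 from 1 h to 6 h, where the WT value was not called without the second MGE WT 6 h array (-1.20, adjusted p = 0.055). All of these 10 tests run the same way, with the larger rise or the smaller fall in CTX cultures. They were listed because they were called, share arrays, and come only from Arc and Homer1 1425671_at and 1421768_a_at, so they are not separate lines of agreement. For Homer1 1439662_at it was 0.94 from 0 h to 6 h in WT cultures, the other way, and 0.65 (adjusted p = 0.13) without the second MGE WT 0 h array. Homer1 1436387_at, whose tests of this kind were not called, also rose more in MGE than in CTX cultures by 6 h. Its rises were 3.17 against 2.14 in WT and 3.03 against 2.21 in KO cultures. Excitatory, interneuron and oligodendrocyte markers differ between the same arrays, and their part in these differences was not tested.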

How the results depend on the processing

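Over 32 alternatives, none of 10008 member values that could be refitted reversed a call; 9897 stayed on their side of the threshold, 82 lost it and 29 gained it, and 67 of 93 member calls held in every alternative that could be run. With 1 probe set per gene after the filter on low intensity, the calls were 6 for the response to KCl in WT cultures, 5 in KO cultures, 16 for MGE against CTX and 2 for its interaction with KCl, since 3 probe sets were then tested in place of 9. Leaving out each array gave 0 to 3 calls for KO against WT and 0 to 1 for its interaction with KCl, the higher values without the first MGE WT 0 h array. Cyclic loess moved the median of all probe sets by up to 0.119 in log2.

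With the replicate block within cell type, 3 member calls were gained (adjusted p of 0.044, 0.029 and 0.025, given with Homer1) and none was lost. The deviations of same-numbered arrays correlated at a median of 0.349 (lowest 0.115) between CTX groups and 0.530 (lowest -0.281) between MGE groups. Over all probe sets the block raised calls for KO against WT at 6 h from 24 to 73 in CTX and from 9 to 29 in MGE, and for the cell type interaction from 1971 to 2986 and 1457 to 2272 in KO (6 h against 0 h and 1 h), from 1569 to 2543 in WT (6 h against 1 h), and from 10 to 23 in WT and 2 to 13 in KO (1 h against 0 h). With each cell type fitted alone, calls at 1 h in CTX were 423 against 744 in WT and 403 against 709 in KO, and KO against WT gave 1, 2 and 7 against 9, 37 and 24 (MGE at 0 h and 1 h, CTX at 6 h). Without the first MGE WT 0 h array, calls over all probe sets went from 9 to 7619 for KO against WT at 0 h in MGE, from 332 to 3535 for MGE WT at 1 h and from 6435 to 11597 at 6 h; they were 112 without the second MGE WT 1 h array and 1970 without the first MGE WT 6 h array. KO against WT at 6 h in CTX gave 328 in place of 24 without the first CTX WT 6 h array and 6 without the second CTX KO 6 h array, and the WT cell type interaction from 0 h to 6 h gave 8536 in place of 2960 without the first MGE WT 0 h array and 1124 without the second CTX WT 0 h array. With 2 arrays a group, a lone array left after leaving 1 out was assumed to vary like the other groups. Dim signals limit Plk2 1443780_at, Homer1 1425671_at in MGE cultures and in CTX cultures at 0 h, and Arc at rest, which lie below the array medians.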
